A study of Mus musculus with 8 samples.

Results

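The 39 genes of cell division and DNA replication followed here were given by name, as 40 symbols of which Cdc2a and Cdk1 denote the same gene, and every probe carrying one of these symbols was taken. Of these genes, 35 were on the array, through 66 of its 25697 probes, while Cdk4, Mki67, Aurka and Aurkb were not matched by symbol and were not analysed here. The RNA came from left ventricle, septum included, of mice aged 12 months on a Swiss Agouti background. Bead arrays of 1 colour were hybridised with RNA of 4 mice heterozygous for a knock-in deletion allele and of 4 wild-type littermates. The labels name no other allele, agent or treatment for either genotype. The question was whether the hearts of the heterozygotes differed from those of their littermates in gene expression. Because whole ventricle was measured, fewer cells of a type and less RNA per cell cannot be told apart.

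Progress through the cell cycle begins when D-type cyclins activate their kinases and release E2F factors from the retinoblastoma protein. E2F factors then raise the genes for the replicative helicase and for nucleotide supply, and a later wave of genes, read through CHR elements and CCAAT boxes, drives mitosis and cytokinesis. Cardiomyocytes of the adult ventricle have largely left the cycle, so mitotic transcripts there are scarce and may come from any dividing cell type of the tissue. D-type cyclins, in contrast, are also expressed in cells that do not divide.

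The promoters of 3 members are printed because they belong to the gene with the largest genotype difference among those tested (Prc1), to a helicase subunit with overlapping E2F letters (Mcm5) and to the D cyclin whose groups did not overlap (Ccnd3). Each runs from 250 bases before to 50 bases after a gene start in RefSeq, build GRCm38.p6, plus strand. The intervals are chr7:80294201-80294500 for Prc1, chr8:75109259-75109558 for Mcm5 and chr17:47593217-47593516 for Ccnd3. Capitals mark matches on either strand to the E2F letters TTTGGCGC or TTTCGCGC, the CHR letters TTTGAA, the NF-Y letters CCAAT and the Sp1 letters GGGCGG.
Prc1: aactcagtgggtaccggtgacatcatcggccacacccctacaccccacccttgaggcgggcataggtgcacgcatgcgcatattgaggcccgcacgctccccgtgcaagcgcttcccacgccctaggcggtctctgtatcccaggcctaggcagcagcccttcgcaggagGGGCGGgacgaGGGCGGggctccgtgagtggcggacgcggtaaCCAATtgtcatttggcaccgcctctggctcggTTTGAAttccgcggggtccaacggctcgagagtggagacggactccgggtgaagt
Mcm5: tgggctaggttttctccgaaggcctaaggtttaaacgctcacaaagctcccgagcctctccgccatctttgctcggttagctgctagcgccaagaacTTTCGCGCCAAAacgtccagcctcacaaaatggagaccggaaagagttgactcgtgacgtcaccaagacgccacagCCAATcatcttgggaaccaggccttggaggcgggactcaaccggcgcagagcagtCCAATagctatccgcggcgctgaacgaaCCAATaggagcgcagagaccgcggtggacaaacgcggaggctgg
Ccnd3: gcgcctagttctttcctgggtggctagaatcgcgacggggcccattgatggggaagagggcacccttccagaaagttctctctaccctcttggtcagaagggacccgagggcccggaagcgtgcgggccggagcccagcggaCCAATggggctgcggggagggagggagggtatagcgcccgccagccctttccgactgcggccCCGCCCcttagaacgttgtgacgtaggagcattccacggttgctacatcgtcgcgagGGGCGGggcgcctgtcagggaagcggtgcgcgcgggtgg
The Prc1 window held a CHR match 5 bases before the start, a CCAAT box further upstream and 2 Sp1 matches. In the Mcm5 window a pair of E2F matches on opposite strands overlapped, and 3 CCAAT boxes followed. The Ccnd3 window held 1 CCAAT box and 2 Sp1 matches. Prc1 and Ccnd3 each had a second start whose window is not printed. The CHR match lay 30 bases before the second Prc1 start. The second Ccnd3 window held 0 CCAAT boxes and 2 Sp1 matches. A RefSeq promoter was matched for 29 members, some with several starts, which gave 32 windows. The E2F letters were in 5 of the 32 (15.6%), against 0.813% of all 32851 promoter windows, and the CHR letters were in 12 (37.5%), against 17.9%. The CCAAT letters were in 24 (75.0%), against 37.4%, and the Sp1 letters in 26 (81.2%), against 35.7%. A match describes letters in a window and is not a measured binding site.

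The array as a whole gave no gene past an adjusted p of 0.05 between the genotypes (0% of 8146 genes, limma), with 2.22% of genes higher and 1.94% lower in heterozygotes at an unadjusted p under 0.05. A probe counted as detected on an array where its deposited detection p was under 0.01, and a gene was tested where a probe was detected on at least 4 of the 8 arrays. Between 10094 and 11545 probes were detected per array, at median deposited intensities of 4.98 to 7.56. All 9 of the cardiomyocyte markers on the array were detected on at least 4 arrays, and their summed signal overlapped between genotypes.

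Heterozygote 3 stood apart from the other 7 mice. Its mean correlation with them over the 8146 genes tested was 0.950. For the other mice the mean was 0.972 to 0.978, their correlation with heterozygote 3 included. It was the highest mouse for 10 of 10 macrophage markers, whose summed signal was 18018 there, from 5831 in the lowest heterozygote, and 5645 to 8160 in wild types. It was also highest for 8 of 8 adipocyte markers (Retn was detected on 0 arrays), with a sum of 23012 there, from 963 in the lowest heterozygote, against 3371 to 10215 in wild types. Of 7 B and plasma cell markers 6 were highest in it, with a sum of 1006 there, from 23.2 in the lowest heterozygote, against 23.3 to 229.9 in wild types, although Igj and Pax5 were detected on 0 arrays. Of 12 T cell and thymocyte markers 5 were highest in it, with a sum of 1043 there, from 387 in the lowest heterozygote, against 224 to 682 in wild types, and Cd4, Cd8a, Dntt and Rag2 were detected on 0 arrays. Of 9 lung epithelial markers 6 were highest in it, with sums of -14.0 to 11147 in heterozygotes and -17.9 to 6764 in wild types, the latter in wild type 1, although Ager, Cldn18 and Lamp3 were detected on 0 arrays. Single bright genes made up much of these sums. In heterozygote 3 Scgb1a1 read 10646, Cfd 20038, Lyz 11968 and Thy1 498. Scgb1a1 read 6624 in wild type 1, and Thy1 read 557 in wild type 2. The part of the cells marked by these lists in the results on cell cycle genes was not tested. Erythroid markers had their lowest sum in it, 9143 against 14006 to 24813 in wild types and 18497 to 23262 in the other heterozygotes. Fibroblast markers had their highest sum in it, 18440, against 10656 to 17530 in wild types. The mesothelial sum was 1035 in it, 175 to 312 in the other heterozygotes and 133 to 1219 in wild types. The summed endothelial and smooth muscle markers of heterozygote 3 lay within the range of the wild types.

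Of the 35 genes on the array, 14 were detected on at least 4 arrays, 9 of them on all 8, while 8 were detected on 1 to 3 arrays and 13 on none. The 13 genes without any detection were Bub1, Bub1b, Ccna2, Ccnb2, Ccne1, Ccne2, Cdca8, Cdk6, Kif11, Kif20a, Mcm3, Mcm7 and Plk1, and their signals ran from -9.10 for Cdk6 to 9.99 for Ccne2. At the threshold, Cdc6 and Cdc20 passed with 4 arrays and Cdca3 fell just outside it with 3. By mouse, 20, 22, 33 and 20 of the 66 probes were detected in heterozygotes 1 to 4, and 16, 16, 16 and 15 in wild types 1 to 4. Every heterozygote thus had more detected probes of these genes than every wild type, with or without heterozygote 3. Over all probes of the array the groups overlapped, at 10094 to 11545 in heterozygotes and 10191 to 10809 in wild types.

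**Figure D1:**
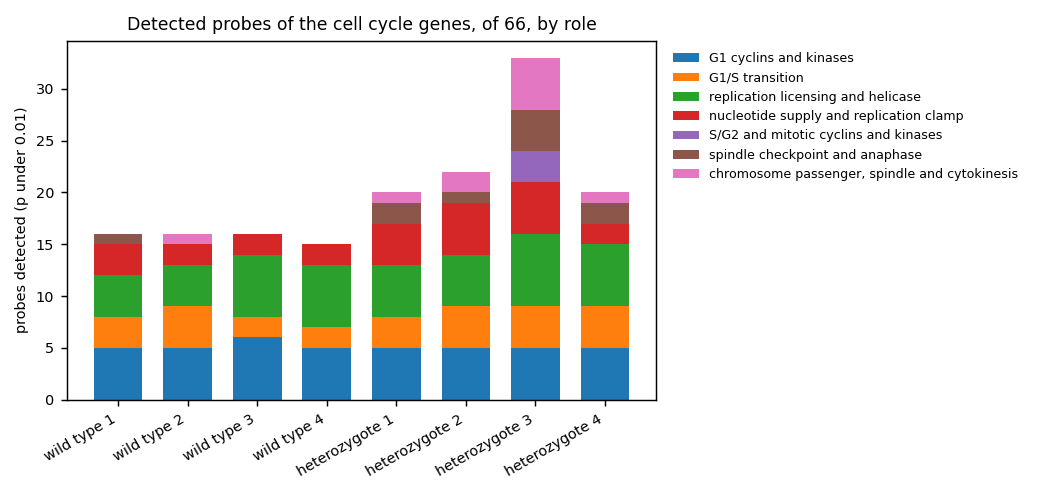
Stacked bars give, for each mouse, how many of the 66 probes of cell cycle genes were detected at a p under 0.01, coloured by the genes' role. Heterozygote 3 reached 33, the other heterozygotes 20 to 22 and the wild types 15 or 16.

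By role, the detections overlapped between the genotypes for every role taken alone. Only when the mitotic roles were pooled did they not overlap. The 8 probes of G1 cyclins and kinases gave 5 detections in each heterozygote and 5 or 6 in each wild type. The 7 probes of the G1/S transition gave 3, 4, 4 and 4 in heterozygotes and 3, 4, 2 and 2 in wild types. The 15 probes for replication licensing and the helicase gave 5, 5, 7 and 6 in heterozygotes and 4, 4, 6 and 6 in wild types. The 12 probes for nucleotide supply and the replication clamp gave 4, 5, 5 and 2 detections in heterozygotes and 3, 2, 2 and 2 in wild types. The 24 probes of the 15 mitotic genes gave 3, 3, 12 and 3 detections in heterozygotes and 1, 1, 0 and 0 in wild types. Heterozygote 3 had the most mitotic detections, and on this pooled count the other heterozygotes also lay above every wild type. The count is of probes, so 1 gene can enter more than once, as Cdc20 does with 4 probes. Over all probes of the array the detections overlapped, at 10094 to 11545 in heterozygotes and 10191 to 10809 in wild types. Within the mitotic probes, those of the spindle checkpoint and anaphase gave 2, 1, 4 and 2 in heterozygotes and 1, 0, 0 and 0 in wild types. Chromosome passenger, spindle and cytokinesis probes gave 1, 2, 5 and 1 in heterozygotes and 0, 1, 0 and 0 in wild types.

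The D-type cyclins, which start the cycle by activating Cdk4 and Cdk6, were detected on all 8 arrays. The detected Ccnd3 probe read 835, 733, 798 and 888 in heterozygotes 1 to 4 and 432, 760, 608 and 415 in wild types 1 to 4 (814 ± 65.4 against 554 ± 163, SD, n = 4 each). On the deposited scale wild type 2 overlapped the heterozygotes, and after normalization all 4 heterozygotes lay above all 4 wild types. The normalized difference was 0.37 on the log2 scale (SE 0.14, 95% interval 0.05 to 0.68, adjusted p = 0.983, limma), and 0.35 without heterozygote 3. Over all genes 1.66% had all heterozygotes above all wild types, and Ccnd3 was the only 1 of the 14 members tested that did. The other 2 Ccnd3 probes were detected in 1 wild type and in no mouse, and read lower in heterozygotes, by -0.38 and -0.12 with overlapping groups.

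The groups overlapped for both other D cyclins. Ccnd2 read 1174, 947, 713 and 903 in heterozygotes and 558, 732, 808 and 380 in wild types. Its groups overlapped, with a difference of 0.41 (SE 0.22, interval -0.07 to 0.89, adjusted p = 0.983, limma), and 0.50 without heterozygote 3. Ccnd1 read 1030, 885, 637 and 887 in heterozygotes and 463, 736, 1046 and 661 in wild types. Wild type 3 was its highest mouse, and its difference was 0.06 (SE 0.18, interval -0.35 to 0.46, adjusted p = 0.999, limma), and 0.17 without heterozygote 3, its lowest mouse. The sign of the Ccnd1 difference turned when heterozygote 1, heterozygote 2 or wild type 1 was left out. Cdk6, a kinase partner of these cyclins, was not detected on any array.

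At the passage from G1 into S phase, the members detected were Cdk2 and E2f1. Cdk2, the kinase that cyclins E and A activate, read 343, 244, 443 and 405 in heterozygotes and 194, 340, 282 and 215 in wild types, which overlapped (difference 0.27, SE 0.16, interval -0.08 to 0.62), and was 0.16 without heterozygote 3. E2f1, a transcription factor that activates replication genes, read 15.4, 14.5, 24.2 and 22.4 in heterozygotes and 5.45, 19.5, 3.64 and 1.68 in wild types. It was detected in 4 of 4 heterozygotes and in 1 of 4 wild types, so that it entered the test mainly through the heterozygotes. Wild type 2 lay among the heterozygotes, and the difference of E2f1 was 0.52 (SE 0.17, interval 0.14 to 0.90, adjusted p = 0.983, limma), the same without heterozygote 3. With 3 wild types near background its size followed the processing, from 0.23 with an offset of 50 to 2.09 in the authors' normalized intensities. The cyclin E genes Ccne1 and Ccne2 were not detected on any array.

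Among the genes that license origins and form the replicative helicase, the highest values mostly belonged to heterozygote 3. Mcm4, a helicase subunit, read 388, 312, 611 and 440 in heterozygotes and 245, 424, 336 and 296 in wild types. Its difference was 0.21 (SE 0.19, adjusted p = 0.990, limma) and 0.03 without heterozygote 3. Mcm5, another subunit and the gene whose promoter holds the overlapping E2F letters printed above, read 59.4, 37.5, 121 and 39.8 in heterozygotes and 32.9, 48.3, 32.8 and 31.5 in wild types. Its difference of 0.39 (SE 0.25, interval -0.16 to 0.94) became 0.15 without heterozygote 3. In both genes the other heterozygotes overlapped the wild types.

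Mcm2, a subunit of the same ring, read 31.2, 18.4, 44.1 and 23.2 in heterozygotes and 18.3, 30.8, 14.2 and 8.22 in wild types (difference 0.34, SE 0.20, interval -0.11 to 0.79, and 0.26 without heterozygote 3). Cdc6, which helps load the helicase onto origins, read 16.8, 9.29, 22.1 and 16.3 in heterozygotes and 3.04, 11.2, 5.62 and 11.7 in wild types. It was detected in 3 of 4 heterozygotes and 1 of 4 wild types, and its groups overlapped (difference 0.35, SE 0.15, interval 0.01 to 0.69, adjusted p = 0.983, limma), which ran from 0.15 with an offset of 50 to 1.27 in the authors' normalized intensities. The other Cdc6 probes were detected on 0 arrays and had differences of -0.05 to 0.09 with overlapping groups. Mcm3 and Mcm7, the remaining listed subunits, were not detected on any array.

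Mcm6, a further subunit, spread more widely among mice of the same genotype than between the genotype means. Its brightest probe read 16.5, 21.1, 80.0 and 32.4 in heterozygotes and 10.3, 14.4, 51.4 and 33.4 in wild types. A second probe read 1.95, -4.39, 53.1 and 32.2 in heterozygotes and -5.25, -4.78, 44.4 and 56.0 in wild types. The remaining detected probe read 5.62, 12.7, 32.9 and 4.50 in heterozygotes and 0.766, 4.74, 19.4 and 17.8 in wild types. Heterozygote 3, wild type 3 and wild type 4 were the 3 highest mice on each probe apart from the order among them. The genotype difference of the brightest probe was 0.17 (SE 0.34, interval -0.59 to 0.94, adjusted p = 0.996, limma) and turned to -0.09 without heterozygote 3.

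**Figure D2:**
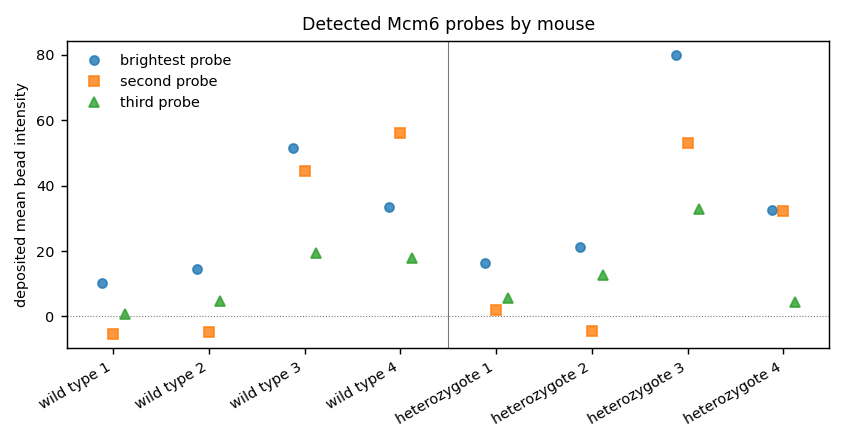
Points give the deposited mean bead intensity of the 3 detected Mcm6 probes in each mouse, wild types to the left. All 3 probes are high in heterozygote 3, wild type 3 and wild type 4.

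For nucleotide supply, the detected genes were Rrm1 and Tyms. Tyms, which makes the thymidylate needed for DNA synthesis, read 24.5, 28.8, 92.8 and 29.9 in heterozygotes and 16.4, 31.0, 28.0 and 26.2 in wild types. On this probe heterozygote 3 stood above all other mice, and the difference of 0.33 (SE 0.25, interval -0.22 to 0.88, adjusted p = 0.990, limma) became 0.05 without it. Of the 5 Tyms probes it was the only 1 detected on at least 4 arrays. The others, detected on at most 2 arrays, had differences of -0.06 to 0.17 with overlapping groups. Rrm1, the large subunit of ribonucleotide reductase, read 148, 83.5, 79.9 and 134 in heterozygotes and 50.5, 97.5, 107 and 75.4 in wild types. After normalization heterozygote 3 was its lowest mouse, and the difference of 0.17 (SE 0.20, adjusted p = 0.990, limma) became 0.34 without it. Rrm2, the small subunit made in S phase, read 4.47, 15.6, 19.9 and 5.79 in heterozygotes and -1.87, 3.33, 1.46 and -1.21 in wild types. It was detected in 2 heterozygotes and 0 wild types, too few arrays for the test, and its groups did not overlap. A second Rrm2 probe, detected on 0 arrays, overlapped between the groups, with a difference of 0.10. Pcna, the replication clamp, was detected on 1 array and read 16.2, 5.32, 6.67 and 5.42 in heterozygotes and 0.172, 5.83, 3.12 and 7.95 in wild types. Tk1, a salvage kinase for thymidine, was detected on 2 arrays and read 13.2, 8.94, 26.4 and 3.88 in heterozygotes and 9.07, 9.23, 5.38 and 9.84 in wild types. The groups of both genes overlapped.

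The cyclins and kinases of G2 and mitosis were detected in heterozygote 3 alone. Ccnb1, the B-type cyclin of mitotic entry, read 17.2 and 13.4 on its probes in that mouse and at most 5.82 in any other. Cdk1, the kinase that it activates, reached 18.2 there on 1 probe, which read at most 5.62 in the other 7 mice. Its other probes, detected on 0 arrays, read -1.46 and -0.689 in heterozygote 3 and up to 7.66 in the other mice. Ccna2, Ccnb2 and Plk1 were not detected on any array.

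Among the genes of the spindle checkpoint and anaphase, Cdc20, which activates the anaphase-promoting complex, read 13.4, 8.52, 38.1 and 16.4 in heterozygotes and 10.8, 6.86, 9.42 and 8.50 in wild types. It was detected in 3 heterozygotes and 1 wild type, and its difference of 0.34 (SE 0.18, interval -0.07 to 0.74, adjusted p = 0.983, limma) became 0.18 without heterozygote 3. Cdca3, which promotes entry into mitosis, read 17.7, 12.7, 36.1 and 7.57 in heterozygotes and -1.79, 3.86, 6.62 and 3.70 in wild types. It was detected in 3 heterozygotes and 0 wild types, and on this probe all 4 heterozygotes lay above all 4 wild types. The second Cdca3 probe, detected on 0 arrays, overlapped between the groups, with a difference of -0.07. As the wild types were not above background, no fold is given for Cdca3 or Rrm2.

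Prc1, which bundles the microtubules of the central spindle during cytokinesis, had the largest difference among the 14 genes tested. It read 12.7, 35.4, 72.7 and 46.1 in heterozygotes and 9.57, 19.0, 10.4 and 5.85 in wild types (41.7 ± 24.9 against 11.2 ± 5.56, SD, n = 4 each). Heterozygotes 2, 3 and 4 lay above every wild type, and heterozygote 1 lay within the range of the wild types. Prc1 was detected in 4 of 4 heterozygotes and 1 of 4 wild types, so that it too entered the test mainly through the heterozygotes. Its difference was 0.93 on the log2 scale (SE 0.26, interval 0.36 to 1.497, adjusted p = 0.983, limma). Without heterozygote 3 it was 0.75 (interval 0.21 to 1.28, adjusted p = 0.605, limma). As 3 of 4 wild types were not above background, the size followed the processing, from 0.50 with an offset of 50 to 1.79 in the authors' normalized intensities, and no fold is given.

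**Figure D3:**
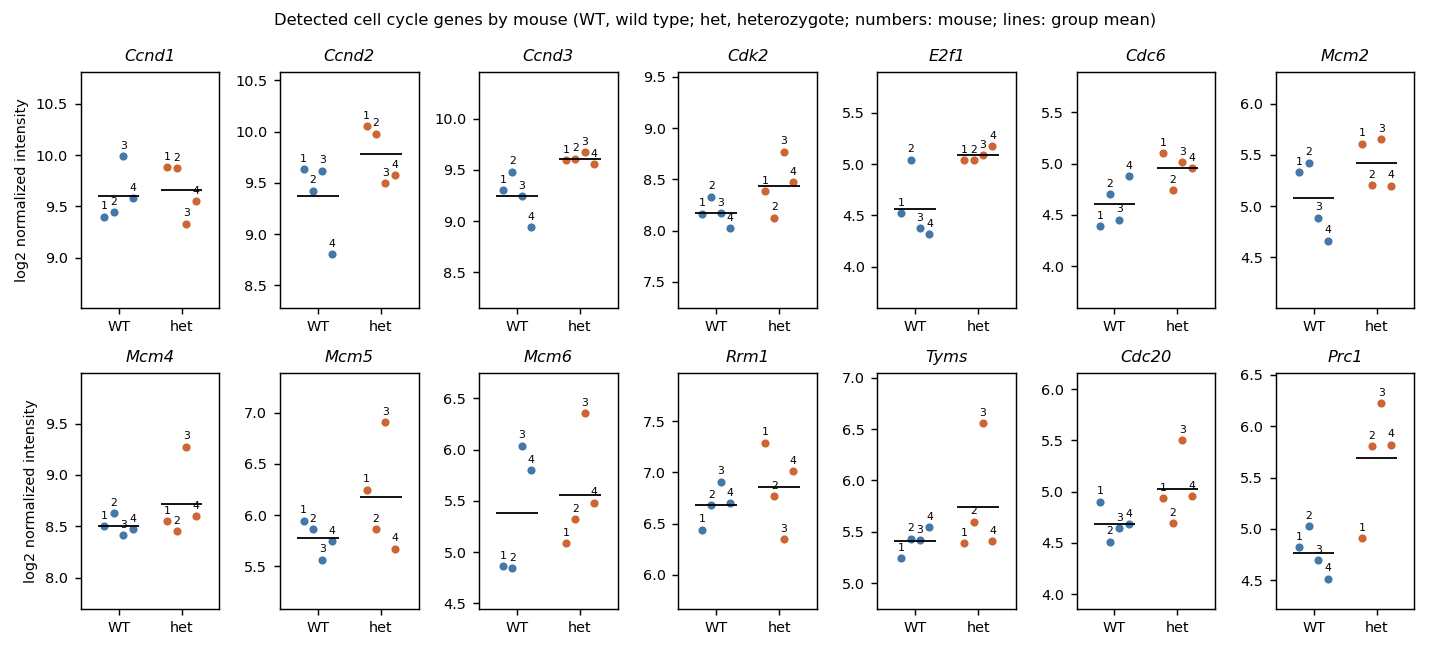
Each panel gives the log2 normalized intensity of 1 of the 14 detected cell cycle genes in every mouse, numbered as in the text, with a line at the mean of the 4 mice of each genotype. The groups are apart for Ccnd3, and heterozygote 3 is the highest mouse for Ccnd3, Cdk2, Mcm2, Mcm4, Mcm5, Mcm6, Tyms, Cdc20 and Prc1.

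The other genes of chromosome segregation were read mostly near background outside heterozygote 3. Birc5, the survivin subunit of the chromosomal passenger complex, read 4.43, 11.4, 34.95 and 7.37 in heterozygotes and 1.57, 5.45, 12.5 and 6.20 in wild types on its brightest probe. Top2a, which untangles sister chromatids, read 32.7 in heterozygote 3 and at most 9.39 in the other mice. Over the 24 mitotic probes the median signal was 12.1 in heterozygote 3, 0.202, 2.04 and 1.48 in heterozygotes 1, 2 and 4, and 0.182 to 3.11 in wild types. Without that mouse the medians of the genotypes thus overlapped. Of the 15 mitotic genes, 7 were detected in heterozygote 3 and 4 in at least 1 of the other 7 mice.

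**Figure D4:**
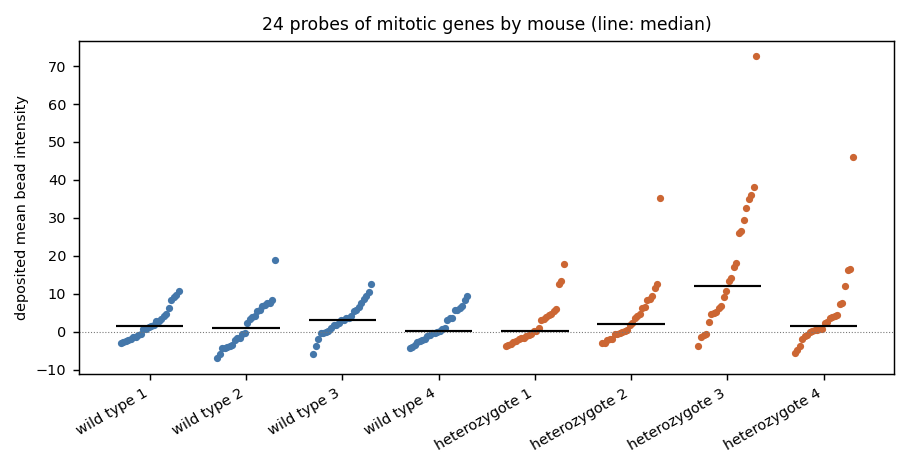
Points give the deposited mean bead intensity of the 24 probes of 15 mitotic genes in each mouse, with a line at the median. The median is 12.1 in heterozygote 3 and at most 3.11 elsewhere. The topmost point is Prc1 in heterozygotes 2, 3 and 4 and also in wild type 2.

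Counted over the genes tested, 0 of 14 passed an adjusted p of 0.05 in limma (0.983 to 0.999) and 4 were higher at an unadjusted p under 0.05 (Ccnd3, E2f1, Cdc6 and Prc1), where 2.22% of all genes were. E2f1, Cdc6, Cdc20 and Prc1 passed the detection filter through the heterozygotes, so that count is a description of the genes that passed. Of the 14, 14 had a difference above 0, as had 53.1% of all genes. Among genes detected on all 8 arrays, a filter that does not favour either genotype in this way, 9 of 9 were above 0, as were 52.7% of such genes, with a median of 0.27. With no filter, 31 of the 35 genes on the array were above 0, as were 52.2% of all genes, with a median of 0.17. There 6 of 35 were higher at an unadjusted p under 0.05, where 2.43% of all genes were, and 3 of 35 (Ccnd3, Cdca3 and Rrm2) had all heterozygotes above all wild types, where 1.59% of all genes did. Without heterozygote 3 the counts above 0 were 8 of 9 and 27 of 35, and the medians were 0.16 and 0.09. The medians over all genes were then 0.033 for those detected on all 8 arrays and 0.0098 with no filter. Under the main filter, 13 of the 14 members and 56.4% of all genes tested were above 0 without that mouse. The shares of all genes above 0 without it are not given here for the other filters. Heterozygote 3 was the highest mouse for 9 of the 14 genes tested (64.3%), and for 20.7% of all genes tested. Among probes detected on fewer than 4 arrays it was highest for 20 of 46 cell cycle probes (43.5%), and for 18.7% of all such probes.

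**Figure D5:**
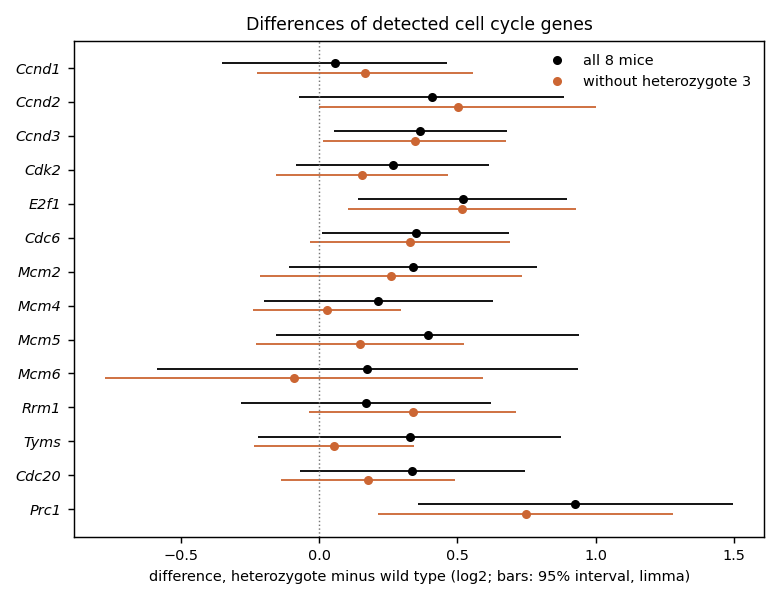
Points give the difference of each of the 14 detected genes, in log2 units and as heterozygote minus wild type, with the 95% interval from limma, over all 8 mice (black) and without heterozygote 3 (orange). Mcm4, Mcm5, Mcm6 and Tyms move toward or past 0 without that mouse, and Prc1 goes from 0.93 to 0.75.

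Other genes of the same pathways were taken from wider lists that share no gene with those above. Of 142 listed, 65 were tested, of which 43 were higher and 22 lower in heterozygotes (66.2% higher, against 53.1% of all genes). Leaving out each mouse in turn, the share higher ran from 52.3% without heterozygote 1 to 67.7% without wild type 4. Their median was 0.04 against 0.01 over all genes, and 0 passed an adjusted p of 0.05 (limma). Heterozygote 3 was the highest mouse for 15 of the 65 (23.1%), and for 20.7% of all genes tested. Of 11 genes around E2F and the retinoblastoma protein 5 were higher and 6 lower, with E2f4, a mainly repressive E2F, at 0.33 and the E2F partners Tfdp1 and Tfdp2 at 0.22 and -0.46. Without heterozygote 3 Tfdp2 was at -0.20 and E2f4 at 0.44. Of 28 replication genes 21 were higher and 7 lower. All 4 heterozygotes lay above all 4 wild types for Pold3, a subunit of DNA polymerase delta (0.49, SE 0.15, and 0.47 without heterozygote 3), where 1.66% of all genes had such a separation. Fen1, the flap nuclease of the lagging strand, was at 0.45 and Cdc7, the kinase that fires origins, at 0.54, or 0.34 and 0.31 without heterozygote 3. Of 26 mitotic genes 17 were higher and 9 lower, with Cdc27, a subunit of the anaphase-promoting complex, at -0.22 and Cdc25a, a phosphatase that activates cyclin-dependent kinases, at 0.34, or -0.17 and 0.43 without heterozygote 3. All 4 heterozygotes lay below all 4 wild types for Cenpa, the centromeric histone (-0.27, and -0.31 without heterozygote 3), where 0.958% of all genes had such a separation. Cdca7, a chromatin-associated target of E2F and Myc, and Fzr1, an activator of the anaphase-promoting complex named here after its values were seen, had all heterozygotes above all wild types, at 0.52 and 0.10.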

How the data were processed

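Total RNA of 8 ventricles was hybridised as biotinylated cRNA to Illumina bead arrays, per the labels' protocols. The deposited non-normalized table holds a mean bead intensity per probe on a linear scale, with background already subtracted, as 23.0 to 27.2% of its values per array are below 0. It also holds a detection p-value per probe, per the file headers. The scanner software and the normalization behind the authors' second table of intensities are not stated in the labels or headers, and that table served as an alternative.

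Deposited intensities were corrected with normexp from the detection p-values (nec in limma 3.58.1, R 4.3.3, offset 16), quantile-normalized and put on the log2 scale. The filter retained the 10547 probes with a detection p under 0.01 on 4 or more of the 8 arrays, the brightest probe stood for each of 8146 genes, and symbols were updated through RefSeq. Genotypes were compared with lmFit and eBayes in limma, two-sided, with Benjamini-Hochberg adjustment over all 8146 genes at 0.05. Differences are heterozygote minus wild type. The steps were tested on simulated data. Figures used matplotlib 3.10.9 in Python 3.11.15.

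The members and lists were chosen with earlier results of these data known. Members detected on at least 4 arrays were given their values in every mouse, the others their values or range, and of the other pathway genes the 4 with the smallest p in each list were named. Alternatives changed the background correction, offset, normalization, filter, probe rule, weights and variance model, and left out each mouse. With 4 mice per group their number limits the precision. Replicate numbers named mice in each genotype but did not pair them (correlations of same-numbered deviations -0.22, -0.25, -0.46 and 0.21). Technical dates and slides were not given in the sources used here, so no batch was examined. The gene altered in the heterozygotes is not reported here.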

Additional observations from a re-analysis of the deposited data

Results flagged for a closer look

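Of the values of Ccnd1, the second probe of wild type 3, at a log2 normalized intensity of 9.52, lay far above the other 3 wild types, which spanned 9.14 to 9.19. It was the only group of 4 mice among the 40 examined in which a mouse lay so far from the rest, and chance alone marks about 1 in 20 such groups.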

How the results depend on the processing

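No gene passed an adjusted p of 0.05 in limma under any alternative run, and no call of a single member could therefore be lost. Leaving out each mouse in turn, the members with all heterozygotes above all wild types made up 7.14 to 28.6% of those tested. Those higher at an unadjusted p under 0.05 (limma) numbered 2 to 6. Separation is easier to reach with fewer mice. Over all genes it rose from 1.66% to 5.65% without heterozygote 3, where 7.14% of the members were apart. Genes higher at an unadjusted p under 0.05 (limma) then rose from 181 to 364 of 8146. Shares over all genes are not given here for the other mice left out. The median of other cell cycle genes ran from 0.0086 to 0.078, and Prc1 from 0.75 to 1.19. Ccnd1 turned to -0.017 without heterozygote 1, -0.01 without heterozygote 2, -0.01 without wild type 1 and -0.034 with array weights. Mcm6, at up to 0.39 without wild type 3, turned to -0.090 without heterozygote 3, -0.0070 without wild type 2 and -0.14 with array weights (0.257 for heterozygote 3), where other cell cycle genes had a median of 0.098. With the replicate number as a block, 2 members were higher at an unadjusted p under 0.05 in place of 4, and 0 genes passed an adjusted p. Median scaling moved the median of all genes to 0.16, of G1 cyclins to 0.56 and of other cell cycle genes to 0.19. Without normexp, G1/S genes had a median of 1.05, Cdc20 0.77 and Prc1 1.68, and the authors' normalized intensities gave 1.18, 0.88 and 1.79. With an offset of 50 the members' median was 0.20 and Prc1 0.50. With no filter, 31 of 35 members were higher, with medians of 0.17 over them, 0.18 for G1/S genes and 0.12 for the spindle and cytokinesis genes. Detection on all 8 arrays left 9 members, 9 of them higher and 1 at an unadjusted p under 0.05 (limma). The 11.1% of them apart was Ccnd3 alone, where 1.66% of all genes were apart under the main filter. Detection on at least 1 array gave 22 members. Using every detected probe, medians were 0.15 for G1 cyclins and 0.20 for G1/S genes. Chosen after seeing the data, the exclusion of heterozygote 3 with no filter gave 27 members higher, medians of 0.089 over all of them, 0.12 for G1/S, 0.075 for helicase and 0.053 for spindle genes, and Mcm6 at -0.090. With detection on all 8 arrays it gave 8 of 9 higher and 2 at an unadjusted p under 0.05 (limma). The 11.1% apart was again Ccnd3 alone, where 5.65% of all genes were apart without that mouse under the main filter. Medians were 0.16 over these members and for G1/S and 0.028 for helicase genes, and Mcm6 was at -0.090. The cause of these shifts was not tested. Signals within a few units of background limit E2f1, Cdc6, Cdc20 and the mitotic genes, whose differences shrink with a larger offset.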

Other observations

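Among the other pathway genes, Uhrf1, which recruits the maintenance DNA methyltransferase to replicated DNA, was 0.65 higher in heterozygotes on the log2 scale, and 0.29 higher without heterozygote 3. E2f2, an activating E2F factor, was 0.59 higher, and 0.24 higher without heterozygote 3. Cdca7 was 0.52 higher, and 0.32 higher without that mouse. None of the 3 passed an adjusted p of 0.05 in limma.

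Probes of the same gene did not always give the same difference. The 3 detected probes of Ccnd1 ranged from -0.06 to 0.15, those of Cdk2 from 0.04 to 0.27, and those of Mcm6 from -0.18 to 0.17. Stk6, the older symbol of Aurka, had 1 probe, which was detected on 1 array, heterozygote 3, at a signal of 25.1, and read 0.412 to 7.91 in the other 7 mice.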
